A study of Mus musculus with 6 samples.

Results

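Genes of sugar breakdown and of the oxygen-sensing response were compared between whole mouse embryos at embryonic day 8.5 that lacked the Wnt receptor gene Fzd7 and embryos that lacked Fzd7 and its close relative Fzd2. The 10 genes were Slc2a1, Hk2, Pfkl, Aldoa, Pgk1, Ldha, Pdk1, Vegfa, Bnip3 and P4ha1, out of 18193 genes measured. They were chosen by name, and every probe set that the array's annotation assigns to only 1 of these symbols was kept. This gave 25 probe sets, and the brightest of a gene's probe sets, by its mean over the 6 arrays, stands for the gene. The single knockout (Fz2+/+; Fz7-/- in the labels) and the double knockout (Fz2-/-; Fz7-/-) had 3 single-colour Affymetrix arrays each. Both groups therefore lacked Fzd7, and both were on a C57BL6/129 mixed background and of mixed gender. No wild-type embryos, and none without Fzd2 alone, were analysed here. The labels do not say how many embryos a sample held or whether replicates came from separate litters, so p-values here reflect sample-to-sample spread only, part of which may be technical.

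Glycolysis turns glucose into pyruvate and yields ATP without oxygen. The embryo before a working circulation relies on it heavily, and much of the pyruvate leaves as lactate. When oxygen is short, the prolyl hydroxylases that mark hypoxia-inducible factor (HIF) for destruction slow down. HIF then binds short elements built on the core motif ACGTG or GCGTG and raises glycolytic enzymes, angiogenic factors, mitophagy genes and collagen-modifying enzymes.

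That core motif was looked for on both strands (ACGTG or its reverse complement CACGT, and GCGTG or CACGC) in RefSeq promoter windows of build GRCm38.p6, which run from 250 bases before to 50 bases after each annotated start. All 10 genes matched, with 15 windows in all. ACGTG was present in a window of 8 of the 10 genes, against 21.8% of the 27025 genes in the table, and in 9 of the 15 windows, against 19.6% of all windows. GCGTG was present in 7 of the 10 genes, against 35.2% of all genes, and in 8 of the 15 windows, against 32.4%. The palindrome CACGTG counts as a match on each strand. Pfkl and Pdk1 held GCGTG and no ACGTG, whereas Hk2, Pgk1 and Aldoa held ACGTG and no GCGTG. The 6 stretches below lie upstream of the annotated start. They were picked from genes that were lowest on 1 array, double knockout replicate 1, and from Slc2a1, which was highest on it. Ldha lay only 0.06 below the mean of the other arrays there. Pdk1, which lay 0.87 below it, held no ACGTG. Aldoa and Vegfa also held ACGTG or CACGT upstream and were lowest on that array, but their stretches are not shown. Each is read 5′ to 3′ on the gene's own strand, and capitals mark ACGTG or CACGT.
Slc2a1, chr4:119108689-119108733, plus strand: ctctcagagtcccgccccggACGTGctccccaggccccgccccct
Hk2, chr6:82774482-82774526, minus strand: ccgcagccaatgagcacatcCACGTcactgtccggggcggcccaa
Pgk1, chrX:106186949-106186993, plus strand: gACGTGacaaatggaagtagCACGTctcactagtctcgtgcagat
Ldha, chr7:46845750-46845794, plus strand: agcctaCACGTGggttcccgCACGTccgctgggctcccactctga
Bnip3, chr7:138909589-138909633, minus strand: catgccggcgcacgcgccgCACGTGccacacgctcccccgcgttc
P4ha1, chr10:59323260-59323295, plus strand: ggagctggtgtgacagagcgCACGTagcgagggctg
The letters are a description of these windows. The 10 genes were named as genes of glycolysis and the hypoxia response, so the shares above are not an independent finding about them. They were not tied to the array values by any test.

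Fzd2 separated the groups as labelled. On the log2 scale used for all values here, its single knockout arrays (replicates 1, 2 and 3, the order kept below) read 9.86, 9.99 and 10.01, and its double knockout arrays 7.30, 7.69 and 7.63 (limma adjusted p = 0.00567). Fzd7, deleted in both groups, differed by -0.04. Replicate 1 of the double knockout was unlike the rest: 479 genes differed there by over 1 log2 unit from the average of the remaining 5 arrays, and 18 to 37 genes did so on each other array. Its tissue markers differed too. The summed linear level of 11 visceral endoderm markers was 46232 in it, against 7928 to 11182 in the single knockout and 8395 and 8860 in double knockout replicates 2 and 3. Primitive erythroid markers (9 genes) summed to 465, against 23774 to 34241 in the single knockout, 34899 in double knockout replicate 2 and 2922 in replicate 3. Heart markers (10 genes) summed to 7980 against 30569 to 36244 on the other 5 arrays, neural markers (10 genes) to 3287 against 4958 to 5647, and epiblast markers (8 genes) to 7788 against 2683 to 3673. Sums can rest on few bright genes, so mean log2 values are given too. In double knockout replicate 1 the mean was 11.49 for visceral endoderm, against 8.71 to 9.11 on the other 5 arrays. For heart it was 8.38 against 10.54 to 10.88, and for neural 6.86 against 8.02 to 8.39. For epiblast it was 7.76 against 6.17 to 6.72, with 6 genes highest and 1 lowest there. For primitive erythroid it was 5.28, against 8.45 to 8.89 in the single knockout, 8.85 in double knockout replicate 2 and 6.76 in replicate 3. Somite markers (10 genes, 8 of them lowest in that array) summed to 3593 against 3708 to 4385, with a mean of 6.90 against 7.76 to 8.21. Placental trophoblast markers (8 genes, 5 of them below the median gene on every array) summed to 1352 against 445 to 1445, with a mean of 6.55 against 5.11 to 5.21. Of these Prl7a1, Prl5a1 and Cts7, named after their values were seen, lay 3.67, 3.44 and 3.71 above the mean of the other arrays. The rest of that list did not share this shift and lay between -0.21 and 0.54 from that mean. Maternal decidua markers (10 genes, 5 highest and 2 lowest there) summed to 5234 against 3136 to 3719, with a mean of 7.77 against 7.16 to 7.46. On each array 7 of the 10 heart and 5 of the 10 neural markers were above the median gene. All 10 of each list were lowest in double knockout replicate 1. Whether an embryo lacked part of a tissue was not tested. Differences and list medians below are given with all arrays and without double knockout replicate 1. The part of these marker shifts in the results was not tested, and in whole embryos fewer cells of a type and less RNA per cell cannot be told apart.

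The transcripts of glucose uptake, glycolysis and the hypoxia response did not pass the test between the genotypes. Of the 10 genes 9 had a lower mean in the double knockout and Slc2a1 had a higher one, with a median difference of -0.109 (log2), where 53.8% of all genes were lower and the median of all genes was -0.009. By limma 0 of the 10 passed at an adjusted p of 0.05, against 0.00550% of all genes, and 0 had an unadjusted p under 0.05, against 4.96% of all genes. The lower means came mostly from 1 array. Double knockout replicate 1 was the lowest of the 6 arrays for 9 of the 10 genes, against 29.6% of all genes, and the highest for Slc2a1, against 25.3%. In it 7 of the 10 lay more than 0.2 below the mean of the other 5 arrays (17.2% of all genes) and 2, Pdk1 and Bnip3, more than 0.5 below (4.81%). Relative to the single knockout mean, the median of the 10 genes was -0.241 in double knockout replicate 1, -0.015 in replicate 2 and -0.014 in replicate 3. Without replicate 1 the median difference was -0.038, 7 of 10 were lower (53.3% of all genes), and no gene of the 10 differed by more than 0.09. In that setting 0 of the 10 passed at a limma adjusted p of 0.05, 0 had an unadjusted p under 0.05 (6.67% of all genes), and 1, P4ha1, had groups that did not overlap (22.3% of all genes in either direction). For 7 of the 10 the mean of double knockout replicates 2 and 3 lay inside the range of the single knockout arrays, against 55.6% of all genes.

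**Figure D1:**
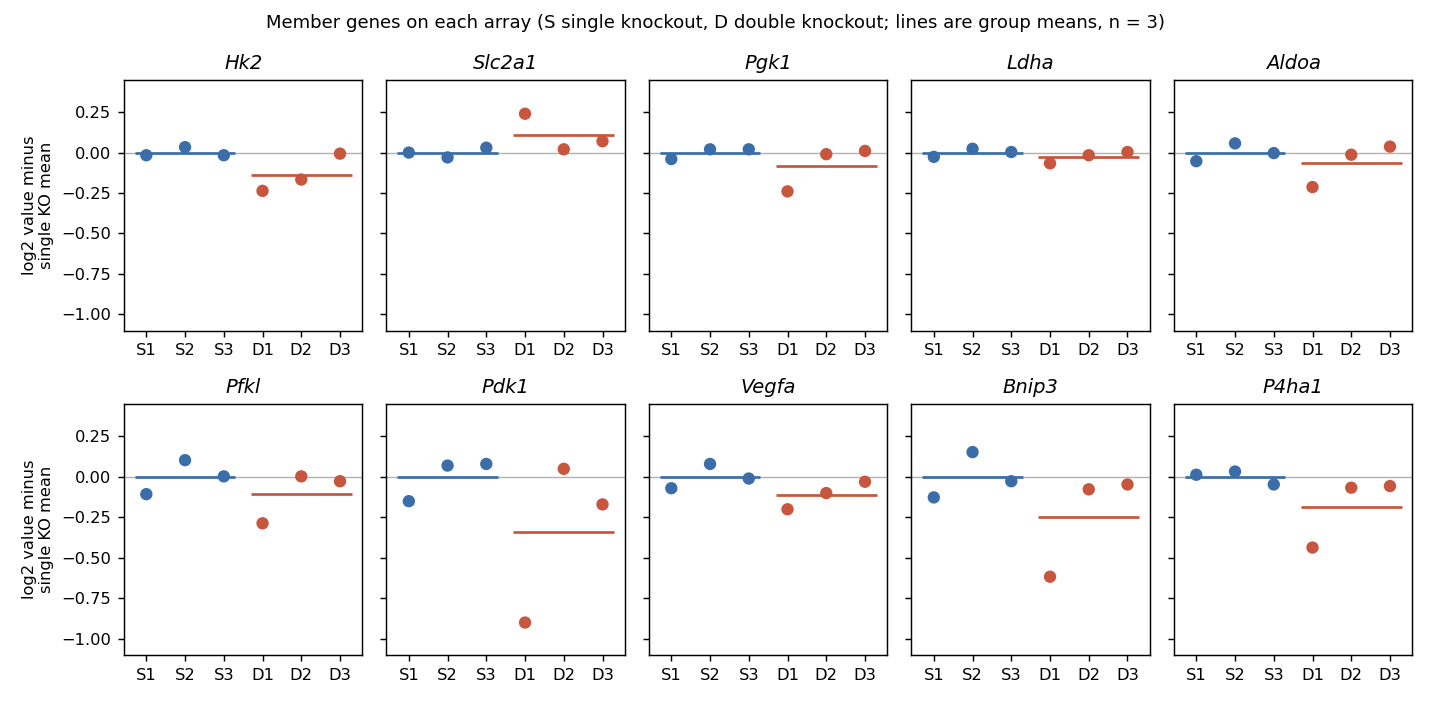
Log2 value of each of the 10 genes on each array, minus the mean of the 3 single knockout arrays (S1 to S3 single knockout, D1 to D3 double knockout; points are arrays, lines are group means). D1 is the lowest point in every panel but Slc2a1, where it is the highest, and D2 and D3 stay close to the single knockout points.

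Slc2a1 encodes GLUT1, the main glucose importer of early embryonic cells and red cells. It read 13.74, 13.71 and 13.77 in the single knockout and 13.98, 13.76 and 13.81 in the double knockout. Double knockout replicate 1 was the highest array, and replicate 2 fell among the single knockout values, so the groups overlapped. The double knockout stood at 108% of the single knockout level (95% interval 95.4% to 122%; limma difference 0.11, SE 0.07, adjusted p = 0.872), and at 103% without replicate 1 (93.4% to 113%). The other 2 probe sets of Slc2a1 showed the same excess in double knockout replicate 1, by 0.22 and 0.21 over the mean of the other arrays, beside 0.22 for the brightest.

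Hk2, a hexokinase that traps glucose in the cell by phosphorylating it, read 12.09, 12.14 and 12.09 in the single knockout and 11.87, 11.94 and 12.10 in the double knockout. Here replicates 1 and 2 were both below the single knockout and replicate 3 was level with it. The difference was -0.14 (SE 0.07, limma adjusted p = 0.872), or 91.0% of the single knockout level with an interval of 80.4% to 103%. Without replicate 1 it was -0.09, the largest of the 10 genes in that setting, with an interval of 83.7% to 106%.

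The enzymes of the middle of the pathway varied little. Pfkl, the liver-type subunit of phosphofructokinase, which catalyses the committed step, read 10.36, 10.57 and 10.47 in the single knockout and 10.18, 10.47 and 10.44 in the double knockout. Aldoa, which splits the 6-carbon sugar, read 13.80, 13.91 and 13.85, then 13.64, 13.84 and 13.89. Pgk1, which makes the first ATP of the pathway, read 14.13, 14.19 and 14.19, then 13.93, 14.16 and 14.18. In all 3 genes double knockout replicate 1 was below every other array, and replicates 2 and 3 lay between the lowest and highest single knockout arrays. Pfkl stood at 92.7% of the single knockout level (95% interval 78.5% to 109%), Aldoa at 95.8% (83.9% to 109%) and Pgk1 at 94.6% (82.5% to 108%), with limma adjusted p from 0.879 to 0.908. Without replicate 1 the levels were 98.8%, 101% and 100%, so the small differences of Aldoa and Pgk1 changed sign. Double knockout replicate 1 was the lowest array on all 3 probe sets of Pfkl, all 5 of Aldoa and all 3 of Pgk1. All Aldoa probe sets and 2 of the Pgk1 sets are of the x_at kind, which can also bind similar transcripts, and Aldoa, Pgk1 and Ldha have processed pseudogenes, so their values are not certain to come from these genes alone.

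Pyruvate can become lactate or enter the mitochondrion, and the genes for these fates differed in how far they moved on double knockout replicate 1. Ldha, the lactate dehydrogenase subunit of glycolytic tissues, read 14.15, 14.20 and 14.18 in the single knockout and 14.11, 14.16 and 14.18 in the double knockout. It was the steadiest of the 10 genes, with all 6 arrays within 0.09. The double knockout stood at 98.2% of the single knockout level (interval 90.0% to 107%; limma adjusted p = 0.937), and at 99.5% without replicate 1 (90.6% to 109%). Its level is close to the highest value on any array, 15.17, and the levels of Pgk1, Aldoa and Slc2a1 are nearly as high. Whether differences were compressed near the top of the range was not tested.

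Pdk1, a kinase that switches off pyruvate dehydrogenase, had the largest difference of the 10. It read 10.89, 11.11 and 11.12 in the single knockout and 10.14, 11.09 and 10.87 in the double knockout. Replicate 1 was lower by 0.87 than the mean of the other 5 arrays, which spanned 0.25, whereas replicate 2 was within the single knockout range and replicate 3 just below it. The difference was -0.34 (SE 0.24, limma adjusted p = 0.872), or 79.2% of the single knockout level with a wide interval of 53.2% to 118%. Without replicate 1 it was -0.06, or 96.1% (80.7% to 114%). All 4 Pdk1 probe sets were lowest in double knockout replicate 1, by -0.87, -0.94, -1.12 and -0.85 relative to the mean of the other arrays, so the shift in that array did not depend on the choice of probe set.

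**Figure D2:**
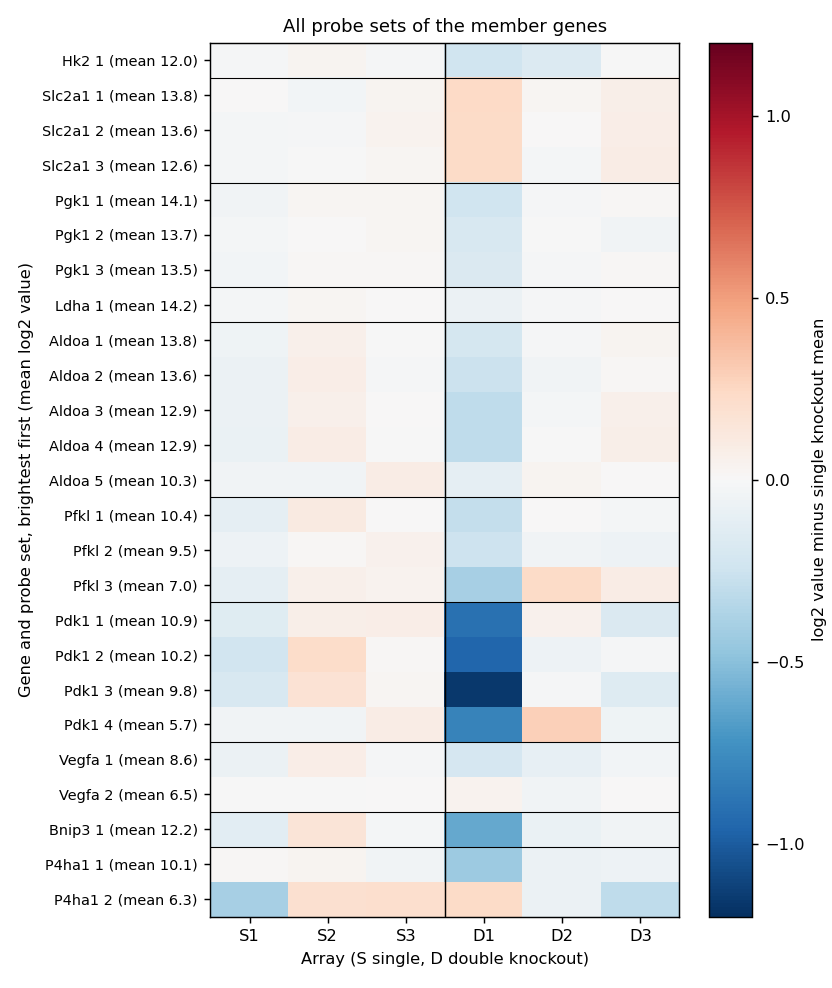
Log2 value minus the single knockout mean (colour, from blue for lower to red for higher) of all 25 probe sets of the 10 genes on each array, with the mean log2 value of each probe set beside its name. Column D1 is the lowest array in 20 rows, deepest for Pdk1, and the highest in 5: the 3 rows of Slc2a1 and the dimmer probe sets of Vegfa and P4ha1.

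Beyond glycolysis, 3 genes stood for other arms of the hypoxia response. Vegfa, the growth factor that guides vessel formation, read 8.57, 8.72 and 8.63 in the single knockout and 8.44, 8.54 and 8.61 in the double knockout. Replicates 1 and 2 lay below the single knockout arrays and replicate 3 among them. Its difference was -0.11 (SE 0.07, limma adjusted p = 0.872), or 92.8% of the single knockout level (82.3% to 105%), and 95.9% without replicate 1 (85.3% to 108%). The dimmer Vegfa probe set read 6.45 to 6.54 on all arrays and was highest, not lowest, in double knockout replicate 1.

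Bnip3, a mitochondrial outer membrane protein that marks mitochondria for removal, read 12.23, 12.51 and 12.33 in the single knockout and 11.74, 12.28 and 12.31 in the double knockout. Only replicate 1 lay below the single knockout range, by 0.59 relative to the mean of the other arrays, which spanned 0.28. The double knockout stood at 84.3% of the single knockout level (interval 63.9% to 111%; limma difference -0.25, SE 0.17, adjusted p = 0.872), and at 95.8% without that array (82.3% to 112%).

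P4ha1, the catalytic subunit of the hydroxylase that stabilises collagen, read 10.17, 10.19 and 10.11 in the single knockout and 9.72, 10.09 and 10.10 in the double knockout. It was the only 1 of the 10 genes whose groups did not overlap, against 6.60% of all genes in the lower direction. The gap was 0.01, between single knockout replicate 3 and double knockout replicate 3. Its difference was -0.19 (SE 0.11, limma adjusted p = 0.872), or 87.9% of the single knockout level (72.9% to 106%), and 95.9% without replicate 1 (87.0% to 106%). Its dim second probe set, with a mean of 6.27, did not follow it and was highest in double knockout replicate 1, at 6.53.

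**Figure D3:**
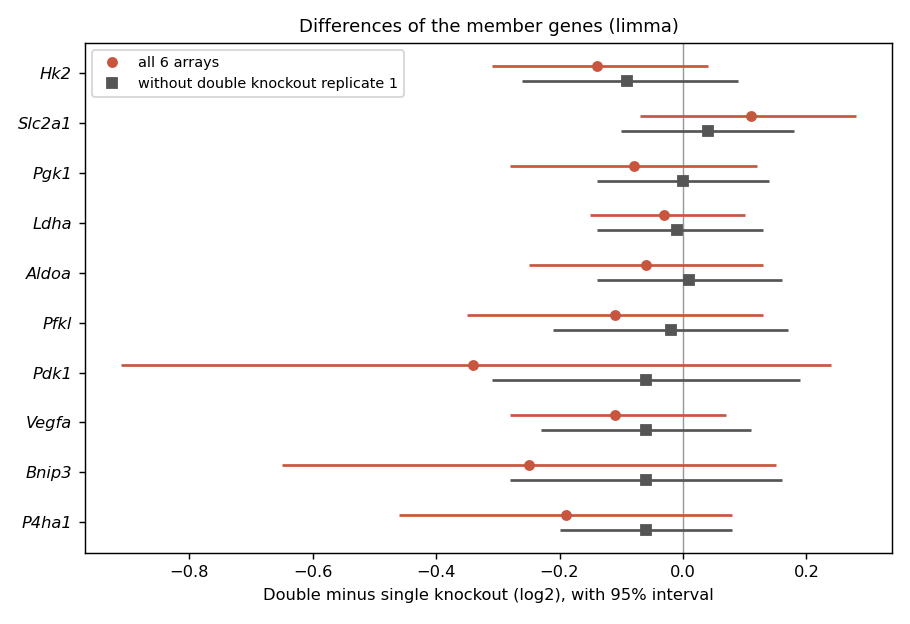
Double minus single knockout difference on the log2 scale for each gene (points) with its 95% interval from limma (lines), for all 6 arrays and without double knockout replicate 1. Every interval includes 0, and the longest, for Pdk1, runs from -0.91 to 0.24 with all arrays and from -0.31 to 0.19 without that array.

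Related enzymes encoded by other genes were set beside the 10, since isoforms often mark different tissues. Of 21 paralogues measured, 8 were higher and 13 lower in the double knockout, with a median of -0.031 (53.8% of all genes were lower), and 0 passed the limma test at an adjusted p of 0.05. Without double knockout replicate 1 the balance turned, with 11 higher, 10 lower and a median of 0.016. The largest shifts were again those of double knockout replicate 1. Slc2a2, which encodes the glucose carrier GLUT2 of liver and yolk sac endoderm, read 6.24, 6.26 and 6.53 in the single knockout and 10.25, 6.20 and 6.31 in the double knockout. Its level in replicate 1 exceeded the mean of the other arrays by 3.95, in the array where visceral endoderm markers summed highest, and the part of those cells in this value was not tested. Slc2a3, which encodes the high-affinity carrier GLUT3, was higher there by 0.27, close to the 0.22 of Slc2a1, and Slc2a4, the insulin-responsive carrier gene, was lower by 0.19 than the mean of the others, at 6.27. Without replicate 1 the differences between the groups were -0.09 for Slc2a2, 0.02 for Slc2a3 and 0.04 for Slc2a4. Ldhb, the lactate dehydrogenase subunit of oxidative tissues, read 9.86, 9.73 and 9.74, then 10.93, 9.63 and 9.97, while Ldha was flat. Ldhc, known from testis, read 6.88 in replicate 1 and at most 6.54 on the others. Without replicate 1 Ldhb differed by 0.02 and Ldhc by 0.09.

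Hk1, the hexokinase of brain and red cells, was lower in all 3 double knockout arrays. It read 8.39, 8.66 and 8.48 in the single knockout and 7.22, 8.21 and 8.25 in the double knockout, so the groups did not overlap. Among the 21 paralogues this held for 1 in the lower direction (4.76%, against 6.60% of all genes). The difference was -0.62 (SE 0.28, limma adjusted p = 0.872), or 65.2% of the single knockout level. Without replicate 1 it was -0.28 (limma adjusted p = 0.707). Hk3 differed by 0.01, and by -0.03 without replicate 1. Among the phosphofructokinases, Pfkp and Pfkm differed by -0.08 and 0.02, and by 0.11 each without replicate 1. Pfkp was low in replicate 1 at 8.76, against 9.11 to 9.40 on the other arrays. Aldoc differed by -0.01, and by 0.06 without replicate 1, and the dim Pgk2, a testis isoform, read 3.27 to 3.56 throughout.

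The other kinases of pyruvate dehydrogenase were set beside the 0.87 by which Pdk1 lay lower in double knockout replicate 1. Pdk3 lay lower by 0.21 in double knockout replicate 1 than on the other arrays, while Pdk2 and Pdk4 were dim, between 3.72 and 4.14, and were not lowest there. Without replicate 1 Pdk3 differed by -0.07 and Pdk4 by -0.14. Bnip2, a relative of Bnip3, was within 0.08 over all arrays at 10.59 to 10.67, and differed by -0.04 (-0.03 without replicate 1). P4ha2 differed by -0.23 and the dim P4ha3 by -0.25, both beside the -0.19 of P4ha1. Without replicate 1 these were -0.13, -0.25 and -0.06.

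In the VEGF family, Pgf, the placental growth factor gene, lay higher in the double knockout. It read 7.79, 7.62 and 7.43 in the single knockout and 7.90, 7.85 and 8.12 in the double knockout, with no overlap between the groups. Among the 21 paralogues this held for 2 in the higher direction, Pgf and Ldhc (9.52%, against 4.85% of all genes). Pgf differed by 0.34 (SE 0.12, limma adjusted p = 0.872), and by 0.37 without replicate 1 (adjusted p = 0.708), so this difference was not carried by that array. Vegfd, a ligand of lymphatic vessels, differed by -0.25 and Vegfb by -0.06. Without replicate 1 these were -0.19 and 0.04. Vegfc, another lymphatic ligand, differed by -0.36 with all arrays and by 0.04 without replicate 1, where it had read 8.07 against 9.04 to 9.57 on the others.

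**Figure D4:**
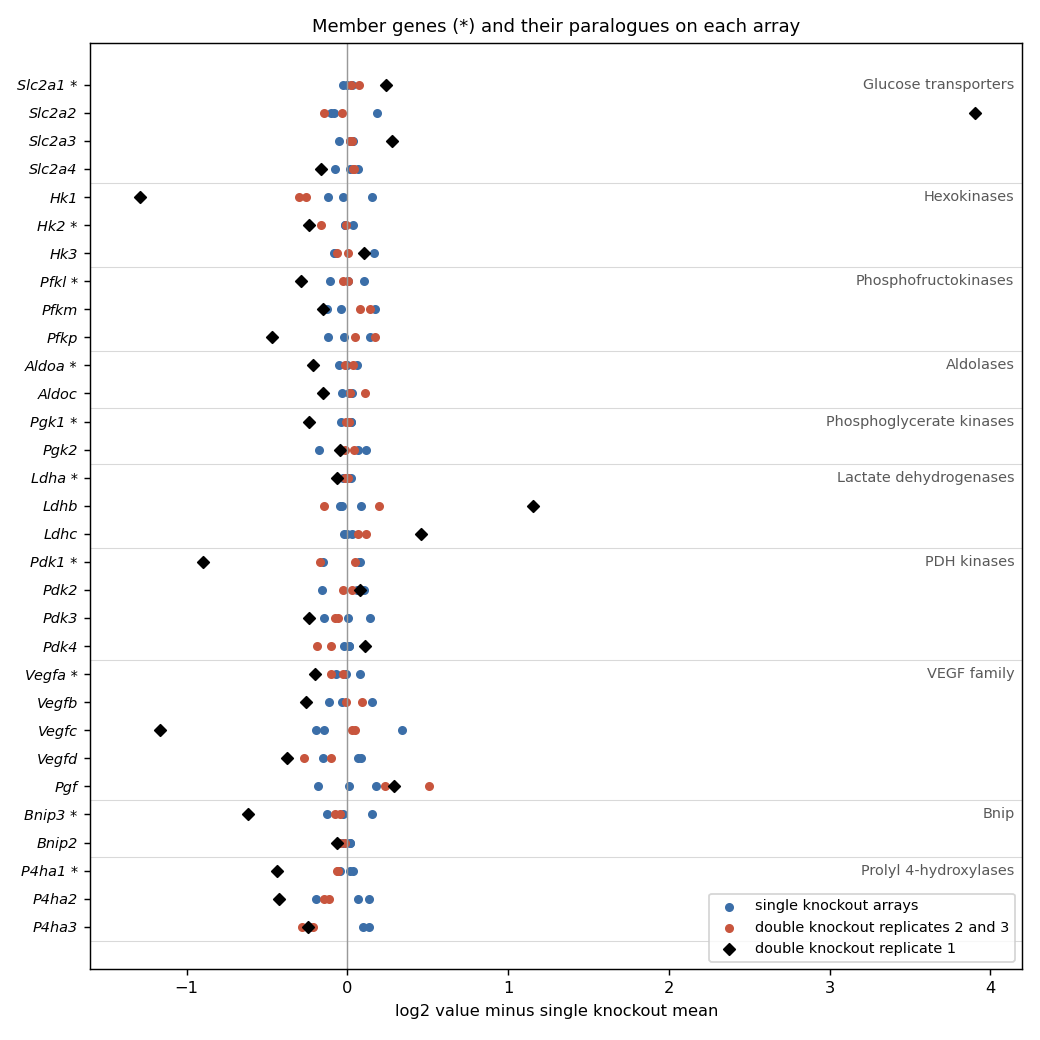
Log2 value minus the single knockout mean for the 10 genes (asterisks) and their 21 measured paralogues, by family; each point is 1 array. The diamonds of double knockout replicate 1 leave the other arrays furthest for Slc2a2 and Ldhb on the higher side and for Hk1, Vegfc and Pdk1 on the lower side.

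Other genes of glycolysis and lactate export showed no common direction once double knockout replicate 1 was left out. Of 18 such genes measured, 6 of which (Hk1, Pfkm, Pfkp, Aldoc, Ldhb and Slc2a3) are also among the paralogues, 13 were lower and 5 higher, with a median of -0.026. Without that array 8 were lower and 10 higher, with a median of 0.008. None passed at a limma adjusted p of 0.05. In each setting 1 had an unadjusted p under 0.05, against 4.96% of all genes with all arrays and 6.67% without that array. The smallest unadjusted p with all arrays belonged to Pfkfb4, which with Pfkfb3 makes the sugar bisphosphate that activates phosphofructokinase. Pfkfb4 read 7.78, 7.75 and 7.68 in the single knockout and 7.28, 7.54 and 7.64 in the double knockout, a difference of -0.25 (SE 0.10, adjusted p = 0.872). Pfkfb3 read 8.75, 9.04 and 8.77, then 8.06, 8.56 and 8.74, a difference of -0.40 (SE 0.18, adjusted p = 0.872). The groups of both genes did not overlap, as for 3 of the 18 in the lower direction (16.7%, against 6.60% of all genes). Without replicate 1 the differences were -0.15 and -0.20. The values of Slc16a1, a lactate and pyruvate carrier gene named after its values were seen, went the other way in replicate 1, by 0.65 above the mean of the other arrays, and its groups differed by -0.02 without that array.

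Other known HIF targets lay mostly lower in the double knockout. Of 34 measured, 29 were lower and 5 higher, or 85.3% lower against 53.8% of all genes, with a median of -0.186 against -0.009. Without double knockout replicate 1, 27 were lower (79.4% against 53.3% of all genes), with a median of -0.067 against -0.007. The median over these 34 genes was -0.411 in double knockout replicate 1 relative to the single knockout mean, -0.095 in replicate 2 and -0.020 in replicate 3. Leaving 1 array of the single knockout out against the other 2 gave medians of -0.023, 0.097 and -0.043, so the medians of double knockout replicates 2 and 3 were no larger in size than the largest of these. None passed at an adjusted p of 0.05, and 2 had an unadjusted p under 0.05, against 4.96% of all genes. Lower groups without overlap were found for 6 (17.6%, against 6.60% of all genes). The gene with the smallest unadjusted p was Selenbp1, a sulfur-metabolism enzyme, at -0.45 (SE 0.17, limma adjusted p = 0.872) and -0.59 without replicate 1. It is dim and reached its lowest value, 4.89, in double knockout replicate 3. Of the 34 genes 3 also belong to the glycolysis list, and the 31 others had a median of -0.185, or -0.058 without replicate 1.

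The machinery that senses oxygen was close to level. Of 15 genes for HIF subunits, their hydroxylases, the degradation complex and the coactivators Crebbp and Ep300, 10 were lower and 5 higher, with a median of -0.040, and 0 passed at a limma adjusted p of 0.05. Without double knockout replicate 1, 8 were lower and 7 higher, with a median of -0.019. Hif1a, the oxygen-regulated HIF subunit, read 11.70, 11.78 and 11.79 in the single knockout and 11.97, 11.92 and 11.86 in the double knockout. Its groups did not overlap, and each double knockout array lay above each single knockout array. This held for 1 of the 15 genes (6.67%, against 4.85% of all genes). The difference was 0.16 (SE 0.06, limma unadjusted p = 0.0300, adjusted p = 0.872), and 0.13 without replicate 1 (unadjusted p = 0.0681). With all arrays 1 of the 15 had a limma unadjusted p under 0.05, against 4.96% of all genes. Egln1, the main HIF hydroxylase and itself a HIF target, read 10.04, 10.33 and 10.07, then 9.43, 9.99 and 10.02, a difference of -0.33 (SE 0.17), or -0.14 without replicate 1. Arnt2, a partner subunit of neural tissue, differed by -0.24 and by -0.09 without replicate 1.

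**Figure D5:**
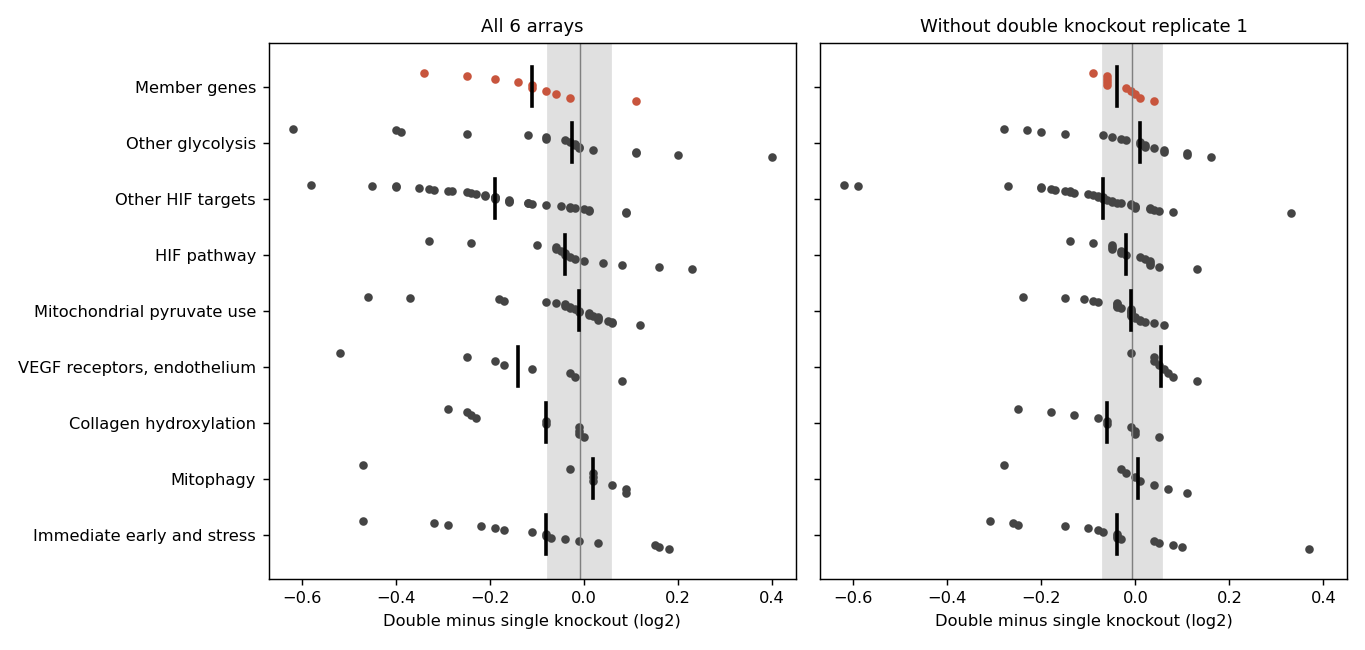
Double minus single knockout differences (log2) of each gene in 9 lists, with all arrays on the left and without double knockout replicate 1 on the right; black bars are list medians, and the grey band and line are the middle 50% and the median of all genes. The medians of the 10 genes (-0.109) and of other HIF targets (-0.186) lie left of the grey band on the left, and at -0.038 and -0.067 on the right. VEGF receptor and endothelial genes (-0.139), collagen hydroxylation genes (-0.080) and immediate early and stress genes (-0.078) also have medians left of the band's edge (-0.077) on the left. On the right these are at 0.058, -0.061 and -0.041.

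Genes of mitochondrial pyruvate use were split in direction. Of 23 measured, 13 were lower and 10 higher, with a median of -0.015, and 0 passed at a limma adjusted p of 0.05. Without double knockout replicate 1, 18 were lower (78.3%, against 53.3% of all genes, median -0.013). In that array 12 of the 23 had their highest value (52.2%, against 25.3% of all genes). Cs, citrate synthase of the Krebs cycle, read 11.97, 11.96 and 11.90 in the single knockout and 11.70, 11.75 and 11.82 in the double knockout. This is a difference of -0.18 (SE 0.06, limma adjusted p = 0.872), or -0.15 without replicate 1. Mpc1, a subunit of the mitochondrial pyruvate carrier, read 7.61, 7.82 and 7.70, then 7.08, 7.53 and 7.42, a difference of -0.37 (SE 0.13, adjusted p = 0.872) and of -0.24 without replicate 1. In both genes all 3 double knockout arrays lay below all single knockout arrays, as for 2 of the 23 (8.70%, against 6.60% of all genes). Dld, a shared subunit of the pyruvate dehydrogenase complex, differed by 0.12, and by 0.06 without replicate 1. With all arrays its groups did not overlap, which held for 1 of the 23 in the higher direction (4.35%, against 4.85% of all genes).

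Partners of the last 3 genes were looked at by role. Of all genes 53.8% were lower with all arrays and 53.3% without double knockout replicate 1. Of 8 VEGF receptor and endothelial genes 7 were lower with all arrays (median -0.139) and 7 were higher without double knockout replicate 1 (median 0.058), beside a Vegfa that was lower in both settings. The endothelial cadherin gene Cdh5 read 6.85 in that array against 8.29 to 8.63 on the others, and the adhesion molecule gene Pecam1 read 5.69 against 6.24 to 6.70. Without that array both differed by 0.04. The VEGF co-receptor gene Nrp1 differed by 0.08 (0.06 without replicate 1). Of 10 collagen hydroxylation genes 9 were lower (median -0.080), and 8 without replicate 1 (median -0.061). Of these genes P4ha2, Plod1 and Plod2 are also among the other HIF targets, and P4ha2 and P4ha3 among the paralogues. Plod2, a lysyl hydroxylase, differed by -0.29 (SE 0.15), and by -0.18 without replicate 1. Of 8 mitophagy genes 6 were higher (median 0.021). Without replicate 1 this was 4 higher and 4 lower with a median of 0.001. Map1lc3b, which coats autophagosomes, and the mitophagy receptor gene Fundc1 each differed by 0.09, and by 0.11 and 0.04 without replicate 1. The survival gene Bcl2 differed by -0.47 (SE 0.17), and by -0.28 without replicate 1. All its double knockout arrays were lower, as for 1 of the 8 mitophagy genes (12.5%, against 6.60% of all genes). In these 3 lists 0 genes passed at a limma adjusted p of 0.05. Immediate early and stress genes, which respond to handling, were lower for 12 of 16 (median -0.078, or -0.041 without replicate 1), and 0 passed. Fosb, dim at 3.41 to 3.74, differed by -0.22, Ier2 by -0.17 and Atf3 by -0.29, and without replicate 1 by -0.26, -0.10 and -0.08.

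The mean profile of the 10 genes, each centred on its own mean, was 0.002, 0.113 and 0.063 on the single knockout arrays, and -0.237, 0.022 and 0.037 on those of the double knockout. Single knockout replicate 2 was the highest array for 7 of the 10 genes, against 22.0% of all genes. Among 9086 other genes brighter than the median gene, the closest in pattern over the 6 arrays were Ncapd2, a condensin subunit, Arfrp1, a small GTPase of the Golgi, and Sass6, a centriole protein, with Pearson correlations of 0.999, 0.998 and 0.998 (n = 6). Without double knockout replicate 1 these were 0.994, 0.977 and 0.976 (n = 5). The arrays are the same for every gene, so shared features of an array enter each correlation. These genes were picked as the highest of 9086 correlations over few arrays, so high values follow from the choice. The fit on 5 of the same arrays is no independent check. Ncapd2 lay lower by 0.16 in that array than on the other 5, Arfrp1 by 0.24 and Sass6 by 0.32.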

How the data were processed

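Total RNA of whole embryos was labelled with biotin and hybridised to Affymetrix arrays, per the labels' protocols. The authors deposited log2 values, 1 for each of 45101 probe sets; RMA is the method named in the submitters' processing notes (version not given in the sources used here). RMA corrects background, scales arrays to a common distribution and summarises probes, and it compresses differences near background. Values ran from 2.64 to 15.17, and the number of arrays limits their precision. Of the probe sets 34945 had a single gene symbol, giving 18193 genes. Groups came from the sample titles.

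The groups were compared with limma 3.58.1 in R 4.3.3 (lmFit and eBayes). Tests were two-sided, p-values were adjusted over all genes (Benjamini-Hochberg), and the threshold was 0.05. The fit was tested on simulated data. Percent levels are 2 to the power of the log2 difference. The genes and lists were chosen with earlier results of these data known. Older symbols were matched through RefSeq synonyms. Genes named from the lists were those of the 3 smallest unadjusted p-values in each list (other HIF targets and glycolysis share 2), all paralogues, and the 3 genes most like the mean profile by Pearson correlation. Outside this rule, Slc16a1, Prl7a1, Prl5a1 and Cts7 were named after their values were seen. Alternatives were 8 settings and leaving out each of the 6 arrays.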

Additional observations from a re-analysis of the deposited data

How the results depend on the processing

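The 10 genes were refitted under 14 alternatives, and 0 passed the threshold in any of them, with adjusted p from 0.737 to 1.00. In some alternatives the differences could not change, because the same values entered a balanced comparison. These were the replicate block, other settings of the variance moderation, dim genes left out, and every probe set tested. Of 140 refitted differences, these included, 138 kept their direction. The exceptions were Pgk1 and Aldoa without double knockout replicate 1, at 0.0015 and 0.01, and over the 6 fits that leave out an array these genes ranged from -0.12 to 0.0015 and from -0.11 to 0.01. The median of the 10 genes ranged from -0.148 to -0.038 in those fits. It was -0.109 with all arrays, -0.067 with array weights and -0.077 with the mean of the probe sets. Leaving out double knockout replicate 1 shrank Pdk1 to -0.06 and Bnip3 to -0.06. Over all genes, limma called 1 (Fzd2), 2 probe sets when every probe set was tested (both of Fzd2), 0 with the mean of the probe sets, and 0 to 1 when 1 array was left out (0 without double knockout replicate 3 or without any of the single knockout arrays). With the replicate number as a block 1 gene was called. The median of the 10 genes, which this balanced block cannot change, was -0.109. The deviations of same-numbered arrays correlated at 0.094, -0.037 and -0.13, and those of single knockout replicate 2 and double knockout replicate 3 at 0.275. With 3 arrays a group, these values cannot tell whether same-numbered samples shared a litter or batch. With 3 arrays a group, the 95% intervals reached down to -0.91 for Pdk1 and -0.65 for Bnip3, and were narrower for the other genes, such as -0.15 to 0.10 for Ldha.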
